A study of Mus musculus with 9 samples.

Results

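The cytosine methylation machinery of mouse embryonic stem cells (ESCs) was followed across the RIPiT-seq libraries of the WDR5 study through 8 genes, chosen by symbol from the 24132 genes of the deposited RPKM table. These were the DNA methyltransferase genes Dnmt1, Dnmt3a and Dnmt3b, the cofactor gene Dnmt3l, the maintenance factor gene Uhrf1, and the TET dioxygenase genes Tet1, Tet2 and Tet3. RPKM is the number of reads per kilobase of transcript, scaled to the mapped reads of the library. RIPiT-seq is RNA immunoprecipitation in tandem, in which a protein with a pair of tags is purified on both tags in turn and the RNA that came with it is sequenced.

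DNMT3A and DNMT3B place methyl groups on unmethylated CpG dinucleotides, and DNMT3L, which has no catalytic activity of its own, binds and stimulates both. After replication, UHRF1 reads hemimethylated CpG and brings DNMT1, which copies the mark to the daughter strand. The TET enzymes oxidise 5-methylcytosine to 5-hydroxymethylcytosine and further products that base excision repair can replace with unmodified cytosine. TET1 and TET2 are the TET enzymes known for undifferentiated mouse ESCs, whereas TET3 is known for the zygote and for differentiated cells.

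The cells were V6.5 mouse ESCs of a 129/B6 F1 hybrid strain, grown without feeder cells in LIF. All 3 lines had been infected with a puromycin resistance lentivirus and selected. The empty vector line carried no cDNA, the WDR5 WT line carried human wild type WDR5 with N-terminal FLAG and HA tags, and the WDR5 F266A line carried the same tagged protein with a phenylalanine exchanged for alanine and a shortened N-terminus. F266A is the mutant of the study for the RNA binding of WDR5, a subunit of the MLL histone methyltransferase complexes. The tagged lines were individual clones picked for a level of tagged protein near that of endogenous WDR5, so the line and the clone cannot be told apart. Each line gave 2 IPs, from formaldehyde-fixed cells by FLAG and then HA purification, and 1 input, which makes 9 libraries. The labels give the IPs replicate numbers and do not name separate cultures, so p-values measure the spread between these samples, which may be technical, and the inputs have no replicate.

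Depth, estimated from the RPKM, lay between 13400000 and 50200000 mapped reads per library. The first F266A IP stood apart from the other libraries of its line, and whether it comes from the same cells as the F266A input and second IP cannot be settled from these data. That doubt holds for every mean, fold and difference of the F266A IPs below. The summed RPKM of the Y-linked genes Ddx3y, Uty and Eif2s3y was 4.43 in the F266A input, 0.0383 in its first IP and 7.21 in its second IP, with 7.41 to 9.48 in the empty vector libraries and 0.182 to 0.324 in the WT libraries. The summed RPKM of 13 primitive endoderm markers was 73.2 in the F266A input, 36.7 in its first IP and 92.6 in its second IP, with 35.0 to 45.0 in the other lines. ESC markers summed to 532, 615 and 723 RPKM in the F266A input, first IP and second IP. They summed to 558 to 845 RPKM in the other lines. Fibroblast markers summed to at most 1.59, with Col3a1, Lum and Dcn at 0 in all 9 libraries. Primed epiblast markers summed to 3.26, 12.3 and 5.76 in the F266A input, first IP and second IP and to 8.16 to 19.0 in the other lines, and trophectoderm markers to 3.29, 6.87 and 4.76 and to 4.202 to 9.32. In bulk RNA, fewer cells of a type and less RNA per cell cannot be told apart. Mouse Wdr5, whose row does not measure the human transgene as such, had an RPKM between 5.85 and 12.9.

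Tet3 and Dnmt3l had the differences between the F266A and the empty vector IPs that lay furthest from 0 among the 8 genes, in opposite directions, and the sequence before their annotated starts is shown for that reason. Both genes have windows in the RefSeq promoter table, and the 250 bases upstream of each start were matched once each in mm9. CpG dinucleotides, the substrate of the enzymes described here, are in capitals, and each sequence runs 5′ to 3′ on the strand of its gene. The Tet3 window lies at chr6:83391673-83391922 on the minus strand, and the Dnmt3l windows lie on the plus strand at chr10:77504782-77505031, chr10:77512337-77512586 and chr10:77517830-77518079.
Tet3 start: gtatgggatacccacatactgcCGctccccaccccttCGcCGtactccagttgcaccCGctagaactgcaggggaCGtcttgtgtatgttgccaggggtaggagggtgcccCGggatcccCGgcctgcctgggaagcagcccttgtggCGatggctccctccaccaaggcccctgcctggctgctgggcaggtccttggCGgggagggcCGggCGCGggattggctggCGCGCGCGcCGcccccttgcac
Dnmt3l start 1: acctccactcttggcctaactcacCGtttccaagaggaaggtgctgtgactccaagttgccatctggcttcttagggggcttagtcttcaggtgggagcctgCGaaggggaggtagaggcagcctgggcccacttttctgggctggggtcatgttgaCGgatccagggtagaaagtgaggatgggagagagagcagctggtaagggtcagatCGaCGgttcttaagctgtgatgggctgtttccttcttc
Dnmt3l start 2: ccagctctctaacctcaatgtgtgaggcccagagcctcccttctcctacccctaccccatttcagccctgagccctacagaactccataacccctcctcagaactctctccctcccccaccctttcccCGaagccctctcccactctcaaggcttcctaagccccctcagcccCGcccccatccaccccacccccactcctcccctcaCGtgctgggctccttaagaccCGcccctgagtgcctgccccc
Dnmt3l start 3: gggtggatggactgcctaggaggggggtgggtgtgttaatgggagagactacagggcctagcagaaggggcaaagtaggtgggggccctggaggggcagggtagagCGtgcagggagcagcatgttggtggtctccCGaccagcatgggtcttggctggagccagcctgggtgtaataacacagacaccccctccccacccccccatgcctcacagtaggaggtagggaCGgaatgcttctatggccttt

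The Tet3 window held 17 CpG and the Dnmt3l windows held 5, 4 and 3, against a median of 6 over the 32851 mouse windows of the same length. The other 6 genes had 11 windows among them. The single windows of Tet2, Dnmt3b and Tet1 held 51, 21 and 15 CpG. Dnmt3a had starts with 38, 40 and 15 CpG, Uhrf1 with 10 and 30, and Dnmt1 with 2, 7 and 26. The GC box GGGCGG, searched on both strands, was found in the Tet3 window and in the second Dnmt3l window, and 32.7% of all windows held it. The E-box CACGTG was found in the second Dnmt3l window and in 6.02% of all windows. The letters TTTNNCGC, an E2F-like motif, were in none of these 4 windows and in 4.28% of all windows. No methylation was measured in these libraries.

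TET genes spanned the whole range of levels within the group. Per kilobase of transcript, Tet1 had the highest mean RPKM over the 9 libraries, 84.7, and Tet3 the lowest, 0.700. Between them came Tet2 with 28.3, Uhrf1 with 25.9, Dnmt3b with 17.9, Dnmt1 with 11.0, Dnmt3l with 7.93 and Dnmt3a with 4.25. Only at the ends of this order did neighbours separate, because every library had more Tet1 than any library had Tet2, and more Dnmt3a than any had Tet3. The other neighbours overlapped in their ranges over the libraries. About 73 to 459 reads per library lay behind Tet3 and 148 to 718 behind Dnmt3l, estimated with the longest annotated transcript, while the other 6 genes had at least 539 reads in each library. These estimates cover counting error only.

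**Figure D1:**
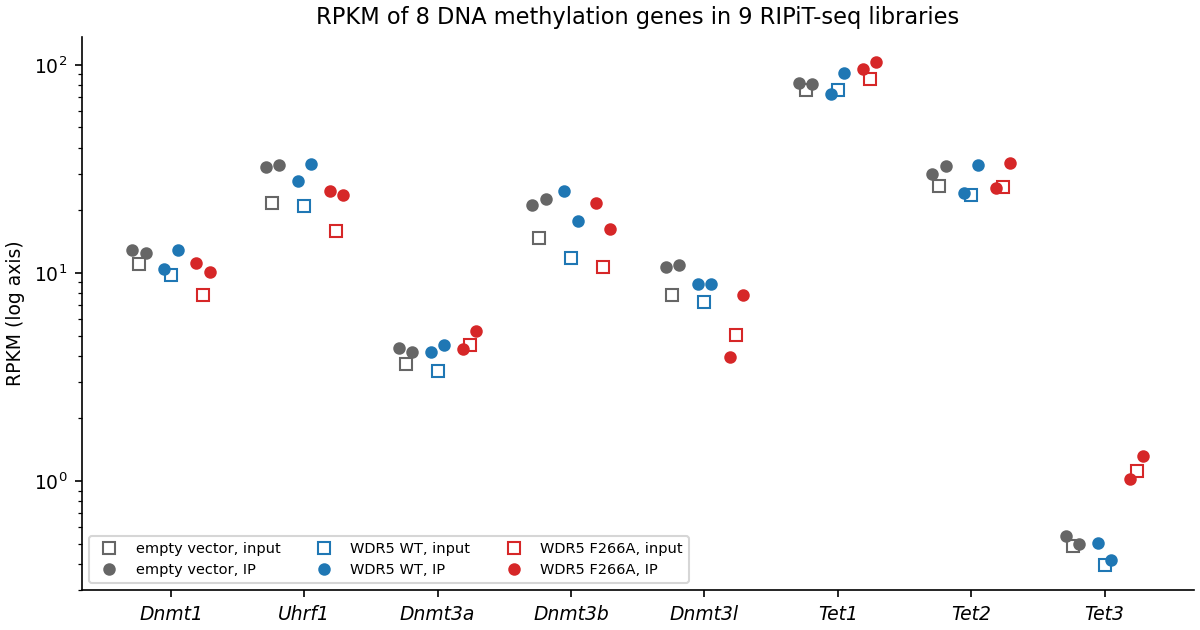
RPKM (log axis) of the 8 genes in the 9 libraries, with open squares for inputs and filled circles for IPs of the empty vector (grey), WDR5 WT (blue) and WDR5 F266A (red) lines. Tet1 lies between 72.1 and 103.3 and Tet3 between 0.395 and 1.31, and the 3 F266A values of Tet3 lie above its other 6.

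Among the TET genes, Tet3 (mm9, chr6:83312367-83391672, minus strand) separated the F266A line from both other lines in input and IP alike. The empty vector line had 0.489 RPKM in its input, 0.546 in IP 1 and 0.500 in IP 2. WT had 0.395 RPKM in its input, 0.503 in IP 1 and 0.417 in IP 2. F266A had 1.12 RPKM in its input, 1.02 in IP 1 and 1.31 in IP 2. All 3 F266A libraries were thus above the other 6, a pattern that Tet3 alone of the 8 genes showed and that 2.66% of the 9787 genes tested showed. The opposite pattern, with all 3 F266A libraries lowest, was found in 0 of the 8 genes and in 6.79% of genes tested. The F266A input was 2.53-fold the mean of the other inputs, and the F266A IPs were 2.37-fold the mean of the other IPs. Tet3 reached the RPKM of 1 that the filter asks of 2 libraries only in the F266A line, so it entered the test through the libraries in which it was high.

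In the limma fit across all 9787 genes, the Tet3 difference between the F266A and the empty vector IPs was 0.50 on the log2(RPKM + 1) scale (SE 0.15, 95% interval 0.17 to 0.84), and its Benjamini-Hochberg adjusted p of 0.0963 missed the threshold of 0.05. The difference between the WT and the F266A IPs was -0.57 (SE 0.15, 95% interval -0.90 to -0.23, limma adjusted p = 0.127). A fit that leaves out 1 F266A IP keeps a single F266A IP, takes its spread from the IP pairs of the other 2 lines and assumes that the lone library varies like them, here and below. Without the first F266A IP these differences were 0.60 and -0.66 (limma adjusted p = 0.0867 and 0.10), so neither was smaller without the library that stood apart. This scale understates the change of a gene with an RPKM near 1. Of 13 primitive endoderm markers, 7 were above the other lines in all 3 F266A libraries, as Tet3 was, and the part of such cells in the Tet3 level was not tested.

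Tet1 (chr10:62267318-62361866, minus strand) had RPKM of 75.6, 81.9 and 81.2 in the input and IPs of the empty vector line, 75.5, 72.1 and 91.8 in those of the WT line, and 85.3, 95.4 and 103.3 in those of the F266A line. Both F266A IPs were above the other 4 IPs, although the second WT IP, at 91.8, came near the first F266A IP. This order was shown by Tet1 and Tet3 among the 8 genes and by 12.8% of all genes tested. The Tet1 difference between F266A and empty vector IPs was 0.28 (SE 0.15, 95% interval -0.07 to 0.63, limma adjusted p = 0.337).

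Tet2 (chr3:133126643-133207354, minus strand) showed no separation of the lines. Its RPKM was 26.0, 29.7 and 32.7 in the empty vector input and IPs, 23.7, 24.1 and 33.1 in the WT input and IPs, and 25.9, 25.6 and 33.7 in the F266A input and IPs. In the WT and F266A lines the first IP lay at the level of the input and the second IP above it. The 95% interval of the difference between F266A and empty vector IPs ran from -0.51 to 0.35.

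Dnmt3l (chr10:77504692-77526367, plus strand) had the lowest F266A levels relative to the other lines among the 8 genes. The empty vector line had 7.85 RPKM in its input, 10.7 in IP 1 and 10.9 in IP 2. WT had 7.28 RPKM in its input, 8.89 in IP 1 and 8.83 in IP 2. F266A had 5.03 RPKM in its input, 3.95 in IP 1 and 7.85 in IP 2. The F266A input was 0.665-fold and the F266A IPs 0.600-fold the mean of the other lines, and both F266A IPs were below the other 4 IPs, as were those of Uhrf1 and of 17% of all genes tested. The 2 F266A IPs differed from each other by more than the empty vector and WT IPs did, with an SD of 2.76 RPKM (mean 5.90, n = 2) against 0.160 (mean 10.8, n = 2) and 0.0398 (mean 8.86, n = 2).

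The Dnmt3l difference between F266A and empty vector IPs was -0.84 (SE 0.23, 95% interval -1.37 to -0.30, limma adjusted p = 0.0896) and that between WT and F266A IPs was 0.57 (SE 0.23, 95% interval 0.04 to 1.11, limma adjusted p = 0.284). These values depend on which F266A IP is kept. Without the first F266A IP they were -0.42 and 0.16, and without the second they were -1.25 and 0.99. The latter values rest on the 1 F266A IP that stood apart, at 3.95 RPKM, and do not measure the spread within the F266A line. The Dnmt3l exons share 67 bases with Aire on the opposite strand, and whether reads were counted by strand is not given in the sources used here.

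Uhrf1 (chr17:56442744-56462909, plus strand) had F266A IPs that lay closer to each other than those of Dnmt3l. Its RPKM was 21.6, 32.1 and 33.1 in the empty vector input and IPs, 20.9, 27.7 and 33.5 in the WT input and IPs, and 15.9, 24.9 and 23.6 in the F266A input and IPs. The F266A input was the lowest input and both F266A IPs were below the other 4. The differences were -0.41 between F266A and empty vector IPs (SE 0.13, 95% interval -0.72 to -0.11, limma adjusted p = 0.128) and 0.32 between WT and F266A IPs (SE 0.13, 95% interval 0.01 to 0.63, limma adjusted p = 0.301). Leaving out the first F266A IP gave -0.45 and 0.35 (limma adjusted p = 0.152 and 0.302).

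Dnmt1 (chr9:20711650-20757317, minus strand), the partner of Uhrf1 in maintenance, had RPKM of 11.1, 12.9 and 12.5 in the empty vector input and IPs, 9.82, 10.5 and 12.9 in the WT input and IPs, and 7.796, 11.1 and 10.1 in the F266A input and IPs. The F266A input was the lowest input, while the F266A IPs overlapped those of WT and lay below those of the empty vector. The difference between F266A and empty vector IPs was -0.24 (SE 0.13, 95% interval -0.55 to 0.07, limma adjusted p = 0.356). Over the 9 libraries Dnmt1 and Uhrf1 correlated with r = 0.93 on the log2(RPKM + 1) scale, the highest of the 28 pairs of the 8 genes, where all points share the lines and the difference between input and IP.

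The de novo enzymes differed from each other. Dnmt3b (chr2:153475186-153513466, plus strand) had RPKM of 14.8, 21.2 and 22.6 in the empty vector input and IPs, 11.8, 24.7 and 17.8 in the WT input and IPs, and 10.7, 21.6 and 16.3 in the F266A input and IPs. In both tagged lines the first IP was above the second. Dnmt3a (chr12:3806007-3914443, plus strand) had RPKM of 3.64, 4.36 and 4.15, of 3.37, 4.17 and 4.52, and of 4.49, 4.33 and 5.24 in the same order of libraries. Its F266A input was the highest input, whereas that of Dnmt3b was the lowest. Dnmt3a shares 133 exon bases with Gm10485 on the opposite strand. In all, Dnmt1, Dnmt3b, Dnmt3l and Uhrf1 had their lowest input in the F266A line, as did 58.9% of all genes tested, and Dnmt3a, Tet1 and Tet3 had their highest input there, as did 22.9%.

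Tested across all genes, 0 of the 8 genes passed the threshold between the IPs of any lines. Between F266A and empty vector IPs, 445 of 9787 genes did (4.55%), 114 higher (1.16%) and 331 lower (3.38%) in F266A, and 3 of the 8 genes (Dnmt3l, Uhrf1 and Tet3) had an unadjusted p under 0.05, against 1993 of all genes (20.4%). The differences of the 8 genes had a median of -0.15, against -0.0050 over all genes tested. Between WT and F266A IPs, 114 genes passed (1.16%), 76 higher (0.777%) and 38 lower (0.388%) in WT, and the same 3 members had an unadjusted p under 0.05, against 1514 of all genes (15.5%). The median difference was 0.034 over the 8 genes and 0.010 over all genes. Without the first or the second empty vector IP, 0 and 4 of all genes passed for F266A against empty vector, and without any 1 of the WT or empty vector IPs, 0 passed for WT against F266A. For the other 5 genes the differences between WT and F266A IPs were 0.12 for Dnmt1, -0.11 for Dnmt3a, 0.15 for Dnmt3b, -0.28 for Tet1 and -0.05 for Tet2. Dnmt3a and Dnmt3b differed by 0.13 and -0.21 between F266A and empty vector IPs. Both comparisons use the F266A IPs, so their values are given side by side and not as separate evidence.

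A model that treats line and fraction as additive, so that the inputs also inform the difference between lines, gave lower adjusted p-values for some of these genes. It assumes that IP and input differ alike in every line. It also counts the input and IPs of a line as independent samples, although they share that line, so its p-values rest on these assumptions. In this model Tet3 (0.51, limma adjusted p = 0.00834), Dnmt3l (-0.74, limma adjusted p = 0.0172) and Uhrf1 (-0.42, limma adjusted p = 0.0120) passed for F266A against the empty vector line, where 16.7% of all genes passed. Tet3 and Uhrf1 passed for WT against F266A, where 9.97% of all genes passed. The values of Tet3 carry the limit given above, that it entered the test only through the F266A libraries.

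Between WT and empty vector IPs the differences of the 8 genes ran from -0.26 for Dnmt3l (95% interval -0.80 to 0.28) to 0.02 for Dnmt3a (95% interval -0.25 to 0.30), and 0 of the 8 genes and 0 of 9787 genes passed in limma, with 0 and 557 at an unadjusted p under 0.05. Both WT IPs were below both empty vector IPs in Dnmt3l. In a fit without the first F266A IP this difference had an SE of 0.10 and an unadjusted limma p of 0.0373, with a limma adjusted p = 0.585. For Tet3 the interval was -0.40 to 0.27.

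**Figure D2:**
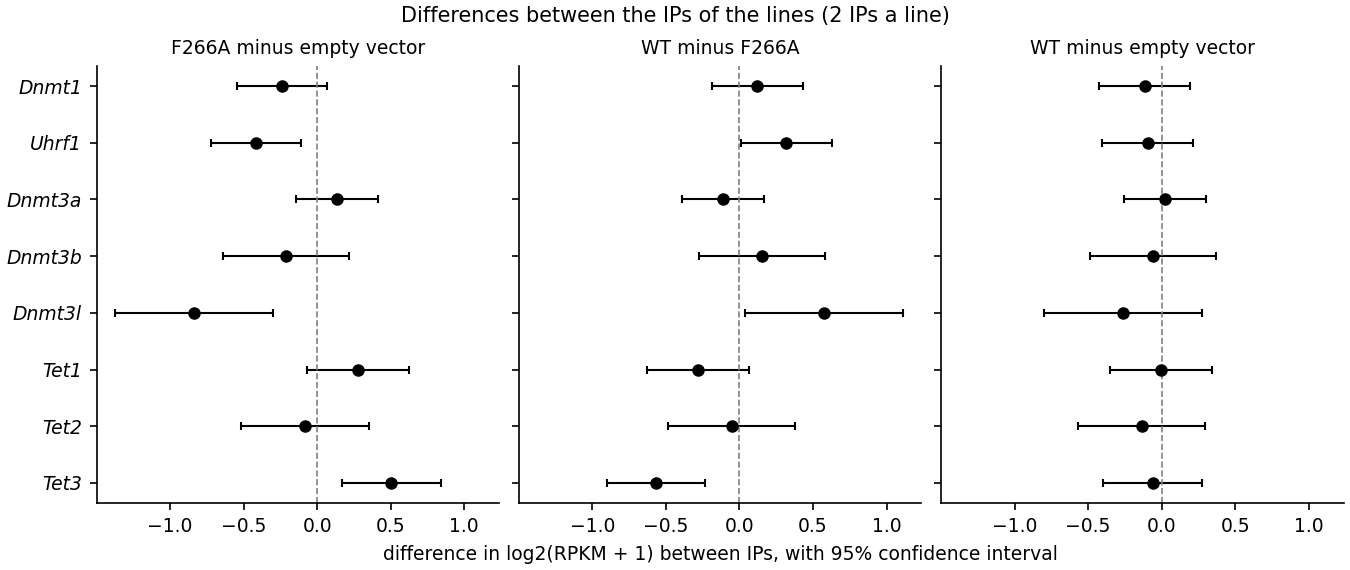
Differences between the IPs of the lines in log2(RPKM + 1) for the 8 genes (points, with 95% confidence intervals from the limma fit, 2 IPs a line). Against F266A, the intervals of Dnmt3l, Uhrf1 and Tet3 leave out 0 before adjustment for the number of genes, and in WT minus empty vector all 8 intervals hold 0.

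Tet3 and Dnmt3l were set beside the markers that moved within the F266A line. Between F266A and empty vector IPs, 0 of the 8 primitive endoderm markers tested passed in limma, and 4 had an unadjusted p under 0.05. Such a p was found for 20.4% of all genes tested. The median difference was 0.69 over these 8 markers and -0.0050 over all genes tested. Gata4, Dab2, Col4a1 and Col4a2 entered the test only through the F266A libraries, in which they are high, and are the 4 with an unadjusted p under 0.05. With the second F266A IP alone, 6 of the 8 passed (these 4, Lama1 and Sparc), beside 4.9% of all genes, in a fit without the F266A library of the lowest endoderm sum, so this count is a description. The endoderm factor gene Gata4 had 1.90, 0.695 and 2.69 RPKM in the F266A input, first IP and second IP and at most 0.171 in the other lines, and Dab2 had 3.02, 0.916 and 5.43 and at most 0.261. Foxa2 was at 0.0873 and 0.0960 RPKM in the F266A input and second IP, at 0.0517 in the first WT IP and below 0.0050 in the other 6 libraries. In the first F266A IP the sum of the 13 markers was at the level of the other lines while Gata4, Gata6, Sox7, Pdgfra, Dab2, Col4a1 and Col4a2 were above them. Lamb1 and Sparc were below every library of the other lines in that IP. Lamb1 had 2.69 RPKM against 4.06 to 5.15, and Sparc 12.2 against 14.9 to 20.9. Dnmt3l was lower in the first F266A IP than in the second, and Tet3 was above the other lines in both. The part of these cells in either gene was not tested beyond these values.

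**Figure D3:**
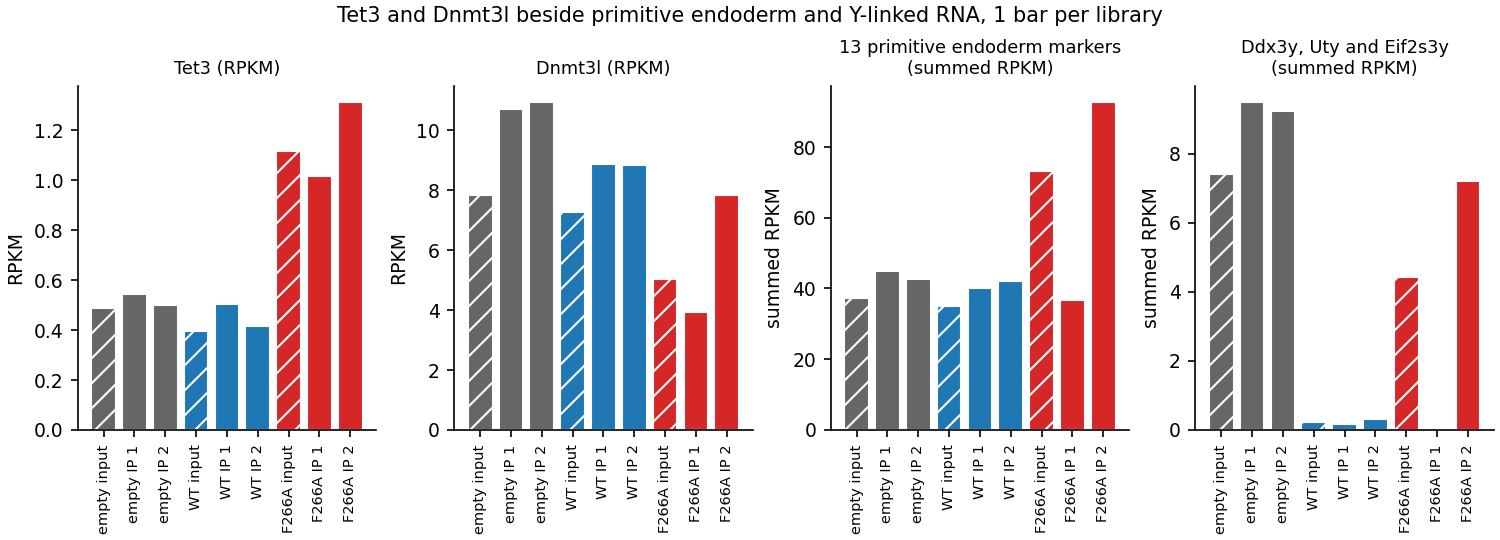
Tet3 and Dnmt3l RPKM and the summed RPKM of 13 primitive endoderm markers and of 3 Y-linked genes in each library (1 bar per library, hatched for inputs). The first F266A IP has an endoderm sum of 36.7 and a Y-linked sum of 0.0383, while Tet3 is at 1.02 there and Dnmt3l at 3.95.

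The study asked which RNAs are enriched with WDR5 WT and not with F266A or the empty vector. The enrichment score of a gene is log2(RPKM + 1) of an IP minus that of its input, and both scores of a line share that input. Scores were above 0 for most genes in every IP, with medians of 0.26 to 0.39 over the genes tested. Dnmt1, Dnmt3b and Uhrf1 had scores above 0 in all 6 IPs, as did 66.3% of all genes tested.

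Dnmt3b and Uhrf1 were also above the median score of the library in all 6 IPs, as were 15.4% of all genes tested. Dnmt3b had scores of 0.49 and 0.58 in the empty vector, 1.01 and 0.56 in the WT and 0.95 and 0.57 in the F266A IPs. Uhrf1 had scores of 0.55 and 0.59, of 0.39 and 0.66, and of 0.62 and 0.55 in the same order. The scores of the empty vector line, which has no tagged protein, thus lay within the range of the tagged lines for Uhrf1, and for Dnmt3b below the first IP of both tagged lines. Tet3 was below the median score of the library in all 6 IPs, as were 16.3% of all genes tested, with scores between -0.07 and 0.13.

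**Figure D4:**
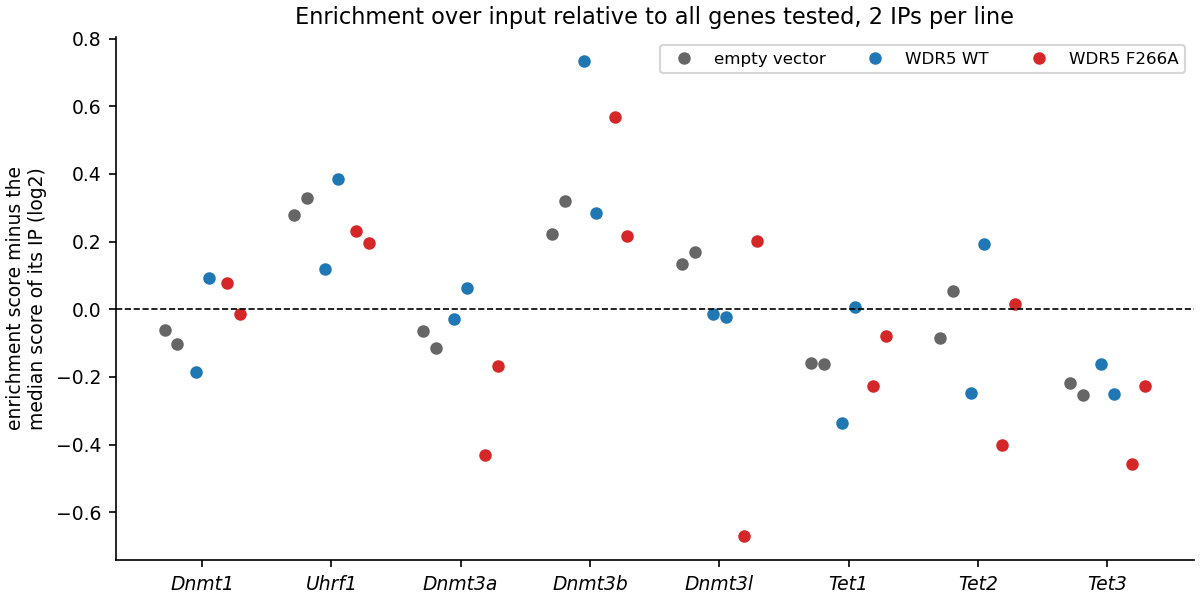
Enrichment score of each gene in each IP minus the median score of the genes tested in that IP (log2 scale, 1 point per IP, 2 IPs per line). Dnmt3b and Uhrf1 lie above 0 and Tet3 below 0 in all 6 IPs, and Dnmt3l in the first F266A IP lies lowest, at -0.67.

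Averaged over the 3 lines, IPs were above inputs by 0.69 for Dnmt3b (SE 0.13, limma adjusted p = 0.00522), by 0.56 for Uhrf1 (SE 0.095, limma adjusted p = 0.00405) and by 0.27 for Dnmt1 (SE 0.095, limma adjusted p = 0.0394). The call of Dnmt1 was lost without the first or the second empty vector IP, the first F266A IP or the second WT IP (limma adjusted p = 0.103, 0.0884, 0.0560 and 0.0554) and with no filter on low values (0.0969), where that of Dnmt3b was lost as well (0.0503). Dnmt3b, Uhrf1 and Dnmt1 were the 3 of the 8 genes that passed, all higher in the IPs. Of all genes tested 56.9% passed, 56.4% higher and 0.47% lower in the IPs, and the median over all genes was 0.30. Both depended on level: with the filter on a mean RPKM of at least 5, 82.2% of 3155 genes passed and the median was 0.41. The other members lay between 0.04 for Tet3 and 0.27 for Dnmt3l, below the median of 0.30 over all genes tested. Dnmt1, although it passed, also lay below that median. Without the first F266A IP, Dnmt3l was at 0.41 and Dnmt3a at 0.22, and both passed (limma adjusted p = 0.00625 and 0.0431), beside 58.9% of all genes. After quantile normalization or centring of each library on its median, 0 of the 8 genes passed. Of all genes, 2.44% passed after quantile normalization (101 genes higher and 138 lower) and 1.56% after centring (92 higher and 61 lower). The differences of Dnmt1, Dnmt3a, Dnmt3l, Tet1, Tet2 and Tet3 turned negative under both, while those of Dnmt3b (0.25 and 0.38) and Uhrf1 (0.098 and 0.25) stayed above 0.

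Dnmt3a alone met the enrichment rule of the methods, in which the lower WT score is above 0 and above all 4 scores of the controls. The rule was met by 1157 of the 24132 genes (4.79%). The Dnmt3a scores were 0.24 and 0.34 in the WT, 0.21 and 0.15 in the empty vector and -0.04 and 0.18 in the F266A IPs, so the lower WT score exceeded the highest control score by 0.036. With a margin of 0.1, with centred libraries or with the mean of the 3 inputs as input, Dnmt3a no longer met the rule. For Tet1 the lower WT score was -0.06, and for the other 6 genes the lower WT score was above 0 but below a control score.

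Enrichment in WT minus the mean enrichment of the controls passed for 0 of the 8 genes and 0 of 9787 genes in limma, with 0 and 135 at an unadjusted p under 0.05. For Dnmt3a it was 0.16 (SE 0.18, 95% interval -0.25 to 0.58), the highest of the 8, and for Dnmt1 it was -0.07 (SE 0.20, 95% interval -0.53 to 0.39), the lowest. The other 3 comparisons of enrichment gave 0 of 8 and 0 of 9787 genes, with 0 of the 8 genes and between 173 and 259 of all genes at an unadjusted p under 0.05. With a pseudocount of 0.01, 107 genes passed in F266A minus empty vector and 106 in WT minus F266A, none of the 8 among them. These contrasts carry the error of a single input per line.

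Genes that work with these enzymes were taken from lists. Of the 12 recruiters and guards of methylation, 0 passed between the IPs of any lines in limma. An unadjusted p under 0.05 was found for 4 in F266A minus empty vector, 2 in WT minus F266A and 1 in WT minus empty vector. Of all genes tested, 20.4%, 15.5% and 5.69% had such a p in these comparisons. The most abundant of the 12 were Trim28, the corepressor of KRAB zinc finger proteins (mean RPKM 65.0), and Zfp57, which keeps methylation at imprinted loci (48.2). Of 5 genes tested from a list of methyl-CpG readers and related proteins, 0 passed in limma. The unadjusted counts were 2, 0 and 0 in the same order, beside 20.4%, 15.5% and 5.69% of all genes. Mbd3 (7.91) and Mbd2 (2.84) had the highest means. Of 8 TET partners and suppliers of 2-oxoglutarate, the cosubstrate of TET enzymes, 0 passed in limma (1, 0 and 0 unadjusted, beside the same shares). Idh3g (19.2) and Ogt (13.05), the O-GlcNAc transferase that binds TET proteins, had the highest means. Dppa3 of the first list, a maternal factor that protects methylation in the zygote, differed between the F266A IPs themselves, at 9.41 and 3.04 RPKM. Its difference from the empty vector IPs was -0.98 (limma adjusted p = 0.214), and -1.67 (limma adjusted p = 0.0185) with the second F266A IP alone. Uhrf2 of the second list, a relative of Uhrf1, was at 0.45 (limma adjusted p = 0.107) and at 0.60 (limma adjusted p = 0.0466).

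Of 13 genes tested from a list for excision repair after TET oxidation, 1 rose and 1 fell in F266A against empty vector IPs. Both were Gadd45 genes, and no other gene of the list passed there. The counts of this and the following lists stand beside 1.16% higher and 3.38% lower of all genes tested, and in the fit without the first F266A IP beside 4.9% called (480 genes, 211 higher). Gadd45a rose by 1.02 (limma adjusted p = 0.0307), with RPKM of 3.65 and 3.52 in the empty vector and 10.3 and 6.65 in the F266A IPs, and Gadd45g fell by 0.79 (limma adjusted p = 0.0446). Both belong to a family of stress-induced genes that has been linked to demethylation. Gadd45g reached the RPKM of 1 only in empty vector and WT libraries, so it entered the test through the libraries in which it was high. Of 11 genes of methyl donor supply, Mthfd2, a mitochondrial enzyme of folate metabolism, was higher in F266A than in the empty vector IPs by 0.95 and differed by -0.96 between WT and F266A IPs (limma adjusted p = 0.0116 and 0.0319). Without the first F266A IP, Gadd45a and Mthfd2 still passed against the empty vector (0.74 and 0.93), and Gadd45g was at -0.88 (limma adjusted p = 0.0535).

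Among 5 germline genes tested, whose promoters are known to be methylated in somatic cells, Hormad1 fell by 0.75 and Tuba3a fell by 0.73 in F266A against empty vector IPs (limma adjusted p = 0.0404 and 0.0453). In that comparison 4 of the 5 lay below 0, while Ddx4 was at 0.59 (limma adjusted p = 0.0701). Ddx4 and Tdrd1, which was not tested, were the 2 of 11 listed germline genes with all 3 F266A libraries above the other 6. Hormad1 and Tuba3a reached the RPKM of 1 in 2 libraries only in the empty vector line, so they entered the test through the libraries in which they were high. The WT IPs were near the F266A IPs, with -0.69 and -0.79 in WT minus empty vector (limma adjusted p = 0.560 and 0.430) and 0.06 and -0.05 in WT minus F266A. Without the first F266A IP they were at -0.66 and -0.56 (limma adjusted p = 0.0840 and 0.0919). Of 16 S-phase genes, which like Dnmt1 and Uhrf1 are expressed in cycling cells, only Mcm6 passed (-0.58, limma adjusted p = 0.0416), and without that IP it was at -0.61 (limma adjusted p = 0.0611). Of 10 ESC markers, 9 lay below 0 in F266A minus empty vector, with a median of -0.35 against -0.0050 over all genes tested. An unadjusted limma p under 0.05 was found for 5 of them, beside 20.4% of all genes. Only Pou5f1 passed (-0.83, limma adjusted p = 0.0434), and without the first F266A IP it was at -0.57. Of 3 trophectoderm markers only Tfap2c passed (-0.68, limma adjusted p = 0.0368), and without that IP it was at -0.83. Krt8 and Krt18 of this list lay the other way, at 0.84 and 0.43 (limma adjusted p = 0.129 and 0.522). Between the IPs of any lines, 0 of the 4 primed epiblast markers, 0 of 1 fibroblast marker and 0 of 1 neural or mesoderm marker tested passed in limma. In F266A minus empty vector, 1, 0 and 0 of them had an unadjusted p under 0.05, beside 20.4% of all genes. Of the primed epiblast markers, Pim2 differed by -1.26 (limma adjusted p = 0.0840) and Lef1 by -0.39 (limma adjusted p = 0.499) there. With the second F266A IP alone they were at -1.69 and -0.93 (limma adjusted p = 0.0410 and 0.0200), and Lef1 had 2.27 RPKM in the first F266A IP and 0.536 in the second.

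Likeness of profile was described by the Pearson correlation of log2(RPKM + 1) over the 9 libraries with every gene tested. Tet3 was most like Satb1 (r = 0.98) and Elk3 (r = 0.97), both at their highest in the F266A libraries. For Dnmt3l, Pou5f1 was among the most alike (r = 0.97). Dnmt3b was most like Sec61a1 and Pgd (r = 0.99 for both), and Uhrf1 like Pik3r4 and Cldn4 (r = 0.99 for both). Dnmt1 was most like Akap12 and Mta3 (r = 0.98 for both), Dnmt3a like BC068157 and Tcf25 (r = 0.98 for both), Tet1 like Rapgef5 (r = 0.97) and 0610040F04Rik (r = 0.96), and Tet2 like Kat2a (r = 0.97) and St5 (r = 0.96). The points share lines, fractions and libraries, and high values of r were picked from 9787 genes, so they are a description.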

How the data were processed

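RIPiT-seq reads of 9 libraries were mapped to mm9 with TopHat 1.1.3 by the authors, who deposited RPKM per RefSeq gene symbol from their own script. Because these RPKM are already scaled by length and depth, no count test was used, and whole reads could not be recovered, since the transcript lengths behind the values are not given in the sources used here. Depth was estimated from the lowest steps of RPKM times exon length (GENCODE M1). The share of reads on genes was 20.1% to 22.6% in inputs and 27.2% to 29.5% in IPs, and it stays in the values. Columns without a sample numbered 0.

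Genes that reached an RPKM of 1 in 2 or more libraries were tested (9787), and their log2(RPKM + 1) was fitted with limma 3.58.1 in R 4.3.3 (1 coefficient per line and fraction, eBayes with trend), and p-values were adjusted by Benjamini-Hochberg over all genes tested, with a threshold of 0.05. The residual spread comes from the 3 pairs of IPs. The fit was also run on simulated data, and no result of that run is given here. Python 3.11.15, numpy 2.4.6 and pandas 2.3.3 served the other steps. Promoter windows are RefSeq's (GRCm38.p6 table), placed on mm9 by exact match.

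The 8 genes and the lists were chosen with earlier results of these data known. All 8 are counted in every comparison. Of the other lists, genes that passed between lines are named, and otherwise the 2 with the highest mean RPKM in the lists of enzymes and partners. Gata4, Gata6, Sox7, Pdgfra, Dab2, Col4a1, Col4a2, Lama1, Lamb1, Sparc, Foxa2, Dppa3, Uhrf2, Pim2 and Lef1 were named after their values were seen. So were Krt8, Krt18, Ddx4 and Tdrd1. Genes of these lists that differed between IPs and inputs are not named. Likeness names the genes with the highest correlation for each of the 8, and 1 of them is not reported here. Alternatives changed the pseudocount, the filter, the normalization, the trend, the replicate block and the model, or left out 1 IP at a time.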

Additional observations from a re-analysis of the deposited data

How the results depend on the processing

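With 2 IPs and 1 unreplicated input per line, calls of single genes depended on the model. The additive fit of line and fraction called 3 of the 8 genes between F266A and empty vector and 2 between WT and F266A, where the reported fit called 0, and the same fit without the first F266A IP, an alternative chosen after seeing the data, called 5 and 3, and 6 between IPs and inputs, beside 25.9%, 18.4% and 67.4% of all genes. Leaving out 1 IP at a time keeps a single IP in a line. The Dnmt3l difference then ranged from -1.25 to -0.42 in F266A minus empty vector and from 0.16 to 0.99 in WT minus F266A. Over all genes, F266A against empty vector gave 0 calls without the first and 4 without the second empty vector IP, 2 with no filter on low values, 242 after quantile normalization and 1635 in the additive fit, against the reported 445. Between IPs and inputs 3 of the 8 were reported, 1 was called with no filter, and 0 after quantile normalization or centring, beside 56.9%, 15.9%, 2.44% and 1.56% of all genes. The enrichment rule of the methods was met by 1 of the 8 genes as reported, by 0 with centred libraries, with the mean input and with a margin of 0.1, and by 1 to 4 with 1 IP left out (4 without the first and 2 without the second WT IP), beside 4.79% of all genes as reported and 13.9% and 13.4% without a WT IP. Enrichment in F266A minus empty vector gave 88 and 107 of all genes with a pseudocount of 0.1 and 0.01, WT minus F266A gave 0 and 106, and the 4 enrichment comparisons gave 22 to 45 with no filter, where 0 was reported.

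Fits with a replicate block called 0 of the 8 genes between lines and 3 between IPs and inputs, as without it, and 607, 154 and 7 of all genes for F266A against empty vector, WT against F266A and WT against empty vector. Deviations of IPs with the same number correlated with r = 0.26 (WT and F266A), 0.11 (WT and empty vector) and 0.012 (F266A and empty vector), so the numbers are not shown to pair the samples.

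Directions turned as follows, and the cause was not tested. The only called value among them was that of Dnmt1 between IPs and inputs. Tet2 in F266A minus empty vector was 0.0089 after quantile normalization and 0.056 in the additive fit without the first F266A IP. In WT minus empty vector, Dnmt3a was -0.013 in both additive fits and Tet1 was 0.019 after quantile normalization. In the enrichment of WT over both controls, quantile normalization gave 0.022 for Dnmt1, 0.054 for Dnmt3l and 0.027 for Uhrf1, and centring gave 0.020 for Dnmt3l. Between IPs and inputs, quantile normalization and centring gave -0.16 and -0.039 for Dnmt1, -0.17 and -0.13 for Dnmt3a, -0.12 and -0.042 for Dnmt3l, -0.25 and -0.17 for Tet1, -0.25 and -0.086 for Tet2, and -0.11 and -0.27 for Tet3.

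With 1 IP left out, Tet2 ranged from -0.27 to 0.11 in F266A minus empty vector. In WT minus F266A the ranges were -0.019 to 0.26 for Dnmt1, -0.22 to 0.0047 for Dnmt3a, -0.075 to 0.38 for Dnmt3b and -0.27 to 0.17 for Tet2. In WT minus empty vector they were -0.26 to 0.025 for Dnmt1, -0.023 to 0.071 for Dnmt3a, -0.28 to 0.17 for Dnmt3b, -0.23 to 0.039 for Uhrf1, -0.18 to 0.17 for Tet1 and -0.36 to 0.084 for Tet2. In the enrichment of WT over both controls they were -0.21 to 0.072 for Dnmt1, -0.094 to 0.36 for Dnmt3b, -0.23 to 0.18 for Dnmt3l, -0.19 to 0.080 for Uhrf1, -0.23 to 0.12 for Tet1, -0.19 to 0.25 for Tet2 and -0.014 to 0.084 for Tet3. Tet3, Dnmt3l, Uhrf1 and Tet1 kept their direction in both comparisons with the F266A IPs under every alternative run. A filter on a mean RPKM of at least 5 removed Dnmt3a and Tet3 from the test.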
